A study of Homo sapiens with 8 samples.

Results

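The 8 genes described here encode the subunits of the condensin complexes, and they were taken by symbol from a table of read counts for 22808 genes. SMC2 and SMC4 are shared by both complexes, NCAPD2, NCAPG and NCAPH belong to condensin I, and NCAPD3, NCAPG2 and NCAPH2 belong to condensin II. All 8 were found, and all 8 passed the filter on low counts, which kept 12366 genes. In the gene models of GENCODE release 29 (GRCh38) the genes lie apart on 8 chromosomes, SMC2 at chr9:104094260-104141417, SMC4 at chr3:160399274-160434962, NCAPD2 at chr12:6493356-6531955, NCAPG at chr4:17810902-17844862, NCAPH at chr2:96335787-96373845, NCAPD3 at chr11:134150119-134225454, NCAPG2 at chr7:158631311-158704829 and NCAPH2 at chr22:50508216-50523472. RNA came from RD18, a human cell line of fusion-negative rhabdomyosarcoma, a childhood tumour of muscle-like cells. In 4 libraries the cells had received miR-449a together with miR-340-5p, called the miRNA pair below, and in 4 libraries lipofectamine, the transfection reagent, as vehicle. Each was taken at 60 h. The vehicle cells are not described as having received a control RNA, so effects of these microRNAs and of any transfected RNA cannot be told apart. Whether the 4 libraries of a group come from different cultures is not stated, so a p-value here reflects library-to-library spread that could be technical.

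Condensins are ring-shaped ATPase machines that extrude loops of DNA and fold interphase chromatin into compact mitotic chromosomes. In each, the paired SMC2 and SMC4 ATPases are closed by a kleisin subunit, NCAPH or NCAPH2, to which a pair of HEAT-repeat subunits binds, NCAPD2 with NCAPG or NCAPD3 with NCAPG2. Condensin II is nuclear throughout the cell cycle and starts chromosome folding in prophase, whereas condensin I is mostly cytoplasmic until the nuclear envelope breaks down and then compacts the chromosomes sideways. Their genes are among those that dividing cells express more highly than resting cells.

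Totals ran from 2567737 to 5569342 counts per library. Levels are given as CPM, read counts scaled to library size after TMM normalization. Of the muscle-lineage markers of the line, MYOD1 averaged 108 ± 3.72 CPM with the miRNA pair and 204 ± 21.7 CPM with vehicle (SD, n = 4 each). In the same order, DES averaged 67.7 ± 7.14 and 108 ± 10.6 CPM, and MYOG 0.646 ± 0.372 and 10.4 ± 1.89 CPM. The sum of the 6 markers ran from 174 to 203 CPM with the miRNA pair and from 346 to 415 CPM with vehicle, so it moved with the condensin genes, and its part in their fall was not tested. The 2 leukocyte markers in the table summed to at most 2.39 CPM with the miRNA pair and 2.76 CPM with vehicle, the 2 endothelial markers to at most 1.29 and 0.674 CPM, and the 2 epithelial markers to at most 2.57 and 0.418 CPM.

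The transfected microRNAs are shown first, because their seeds (bases 2 to 8, in capitals) set the 7-base words searched for in the condensin mRNAs. Both mature sequences are from RefSeq (GRCh38.p14). They lie on the minus strand at chr5:55170586-55170607 for miR-449a and chr5:180015361-180015382 for miR-340-5p.
miR-449a: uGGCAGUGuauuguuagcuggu
miR-340-5p: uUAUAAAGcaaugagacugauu
In the 3′ UTRs of GENCODE release 29, taken for each gene from the protein-coding transcript with the longest coding sequence, CACTGCC, the match to the miR-449a seed, was in 0 of the 8 condensin genes. CTTTATA, the match to the miR-340-5p seed, was in 4 of them, SMC2, NCAPG, NCAPH and NCAPG2, with 1 copy each. The share among 10359 tested genes with such a 3′ UTR was 15.4% for the miR-449a word and 17.3% for the miR-340-5p word. These shares were not matched for length, and the median 3′ UTR of those genes had 1103 bases. With the miR-340-5p word were 3′ UTRs of 2102 (SMC2), 1437 (NCAPG), 494 (NCAPH) and 1668 bases (NCAPG2). Without it were those of 1153 (SMC4), 543 (NCAPD2), 499 (NCAPD3) and 97 bases (NCAPH2). Of tested genes with the miR-340-5p word 34.6% were called lower, and of those without it 33.5%, and for the miR-449a word the shares were 42.2% and 32.1%. The 4 sites are printed as 30-base stretches (GRCh38) with the word in capitals, and in each the word is followed by t and not by the a that would make a longer match.
SMC2, chr9:104139423-104139452, plus strand: taacccatgttttctCTTTATAtaatcact
NCAPG, chr4:17844174-17844203, plus strand: gtgacaggaacttctCTTTATAtacgctac
NCAPH, chr2:96373627-96373656, plus strand: aaacctatatccattCTTTATAtcaatgta
NCAPG2, chr7:158641395-158641424, minus strand: tctatctatatgtgtCTTTATAtttaaagt
A match is a description of the letters and does not show that the site is used. Other annotated transcripts changed the picture for 2 genes without a word above: the miR-449a word was in 2 of 5 NCAPD3 transcripts with a 3′ UTR, the miR-340-5p word was in 1 of those 5, and the miR-340-5p word was in 1 of 5 SMC4 transcripts. Of the 4 genes with the miR-340-5p word, it was in 4 of 4 SMC2 transcripts, 3 of 4 NCAPH transcripts, 1 of 2 NCAPG transcripts and 1 of 5 NCAPG2 transcripts, so 3 of these genes also have annotated transcripts without it. The words covered subunits of both complexes and of the shared core.

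Every condensin subunit mRNA was lower in cells given the miRNA pair. All 8 fell (edgeR quasi-likelihood test, Benjamini-Hochberg adjusted p under 0.05), against 34.0% of all tested genes that were called lower, and in all 8 the libraries of the miRNA pair lay below every vehicle library, as in 29.7% of tested genes. The median log2 fold change of the 8 was -2.39, beside -0.000671 over all tested genes. The condensin I subunits had a median of -4.01, with falls of 8.14-fold to 17.4-fold, and the condensin II subunits a median of -1.998, with falls of 2.08-fold to 6.12-fold. SMC2 and SMC4 fell 4.47-fold and 3.35-fold. In bulk RNA, fewer cells in a stage of the cell cycle and less mRNA per cell cannot be told apart.

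The core ATPase SMC2 measured 228, 188, 189.7 and 183 CPM in the 4 libraries of the miRNA pair, against 935, 856, 840.1 and 914 CPM in the 4 vehicle libraries. The groups were far apart, and replicate 1 of the miRNA pair was the highest of its group. The log2 fold change was -2.16 (SE 0.06, adjusted p = 4.00e-37). Its partner SMC4, whose introns carry the microRNA genes MIR15B and MIR16-2, measured 406, 356, 338 and 372 CPM with the miRNA pair, against 1248, 1165, 1223 and 1304 CPM with vehicle. The groups were again far apart. Its log2 fold change was -1.74 (SE 0.06, adjusted p = 3.24e-35).

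Condensin I held the 3 largest falls. NCAPG, a HEAT-repeat subunit that contacts DNA, measured 11.5, 12.6, 18.9 and 9.33 CPM with the miRNA pair, against 229, 229.7, 229 and 208 CPM with vehicle (log2 fold change -4.12, SE 0.11, adjusted p = 8.64e-40). Only 54 of the 12366 tested genes had a lower fold change. NCAPH, the kleisin that links the SMC heads, measured 4.97, 3.41, 2.07 and 1.61 CPM with the miRNA pair, against 57.7, 49.97, 56.4 and 53.8 CPM with vehicle (log2 fold change -4.01, SE 0.18, adjusted p = 2.70e-28). Those levels rest on 28, 20, 6 and 5 reads with the miRNA pair, against 138, 193, 251 and 214 reads with vehicle, so the lower end is the least precise of the set, with a coefficient of variation of 50.2% against 6.27%. NCAPD2, the HEAT-repeat subunit that pairs with NCAPG, measured 19.17, 17.2, 20.3 and 22.2 CPM with the miRNA pair, against 165, 154, 159.9 and 153 CPM with vehicle. Its replicates were tight in both groups, and its log2 fold change was -3.02 (SE 0.10, adjusted p = 2.14e-35).

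Condensin II subunits fell less. NCAPG2, the counterpart of NCAPG, measured 12.4, 10.1, 11.02 and 6.44 CPM with the miRNA pair, against 62.3, 57.0, 62.0 and 70.3 CPM with vehicle (log2 fold change -2.61, SE 0.14, adjusted p = 8.57e-25). NCAPD3, the counterpart of NCAPD2, measured 8.70, 6.48, 8.61 and 10.9 CPM with the miRNA pair, against 33.5, 29.5, 39.8 and 31.9 CPM with vehicle (log2 fold change -1.998, SE 0.17, adjusted p = 2.01e-16). The kleisin NCAPH2 had the smallest fall of the 8. It measured 12.8, 11.3, 8.95 and 7.72 CPM with the miRNA pair, against 18.4, 21.7, 23.1 and 23.6 CPM with vehicle (log2 fold change -1.05, SE 0.17, adjusted p = 3.21e-07). Its groups did not overlap, but 1481 tested genes, 12.0%, had a lower fold change. The kit was stranded, but the strand setting of the counting is not given in the sources used here, and exons of NCAPG, SMC4, NCAPD3 and NCAPD2 overlap exons of genes on the other strand (1631 of 4921 exonic bases of NCAPG with LCORL, for example). Their pseudogenes took few reads: NCAPGP1, NCAPGP2 and NCAPD2P1 had 0 counts in all libraries of the miRNA pair and at most 9, 6 and 1 in a vehicle library.

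**Figure D1:**
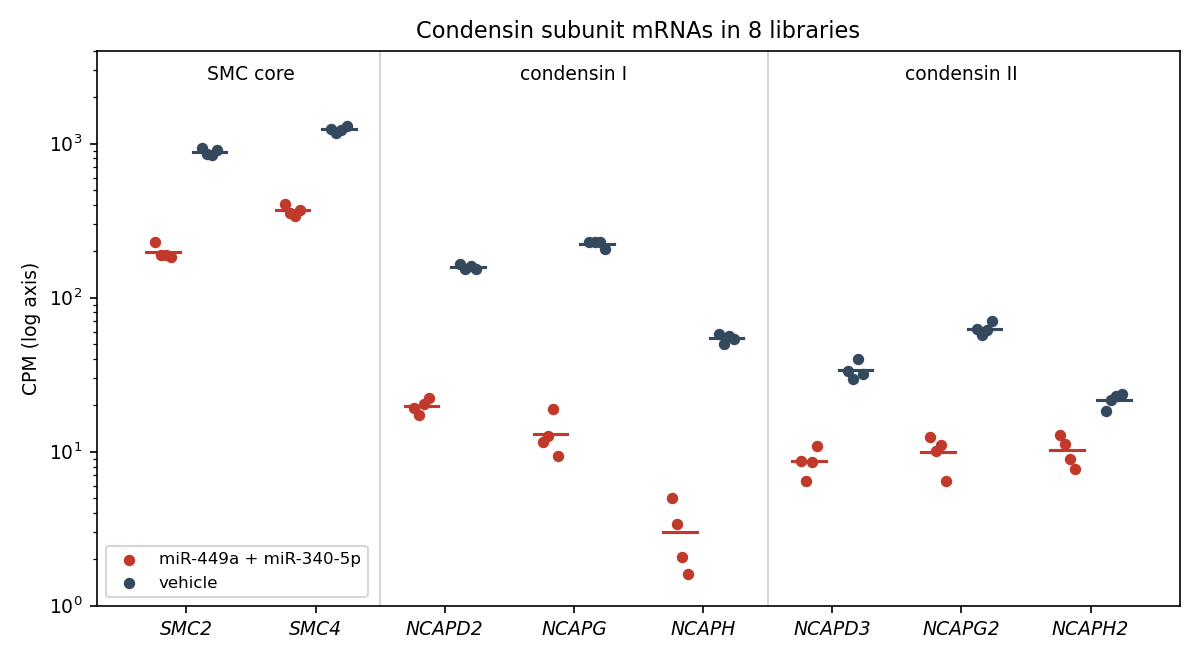
CPM of each condensin subunit on a log axis, with 1 point per library and a bar at the group mean, for the miRNA pair (red) and vehicle (dark blue). All 8 genes separate without overlap, most widely NCAPG and NCAPH, and least NCAPH2 at 10.2 ± 2.27 against 21.7 ± 2.35 CPM.

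The difference between the complexes was tested on ratios within a library, which do not depend on how libraries are scaled. For each subunit of condensin I the count was divided by that of its condensin II counterpart, and SMC2 by SMC4, which gave 4 ratios (0.5 added to each count). NCAPH to NCAPH2 changed most: it was 0.393, 0.308, 0.245 and 0.224 with the miRNA pair, against 3.11, 2.29, 2.43 and 2.27 with vehicle. Per kilobase of transcript the same ratio was 0.199 ± 0.0573 with the miRNA pair and 1.78 ± 0.286 with vehicle (SD, n = 4 each), below 1 in every library of the miRNA pair and above 1 in every vehicle library. The ratio was 8.76-fold lower with the miRNA pair (log2 difference -3.13, SE 0.21). NCAPG to NCAPG2 was 0.929, 1.25, 1.71 and 1.44 with the miRNA pair, against 3.66, 4.02, 3.69 and 2.95 with vehicle, 2.74-fold lower (log2 difference -1.45, SE 0.21). NCAPD2 to NCAPD3 was 2.19, 2.64, 2.33 and 2.01 with the miRNA pair, against 4.91, 5.20, 4.01 and 4.79 with vehicle, 2.06-fold lower (log2 difference -1.04, SE 0.11). SMC2 to SMC4 shifted least, at 0.563, 0.529, 0.561 and 0.492 with the miRNA pair, against 0.749, 0.735, 0.687 and 0.701 with vehicle, 1.34-fold lower (log2 difference -0.42, SE 0.05). Each of the 4 ratios was lower in 4 of 4 libraries of the miRNA pair than in any vehicle library, with p = 0.0286 (two-sided exact permutation test), the smallest that 4 against 4 libraries allow, and 0.0286 after Benjamini-Hochberg adjustment over the 4. SMC2 to SMC4, within the shared core, thus reached the same p as the 3 ratios between complexes. How often ratios of other gene pairs separate the groups was not computed. Of single tested genes, 29.7% lay below every vehicle library and 29.2% above. Averaged over subunits, mean log2 CPM of condensin I minus that of condensin II was -0.05 ± 0.09 with the miRNA pair and 1.79 ± 0.12 with vehicle (SD, n = 4 each), given without a test because it is a score over the chosen genes.

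**Figure D2:**
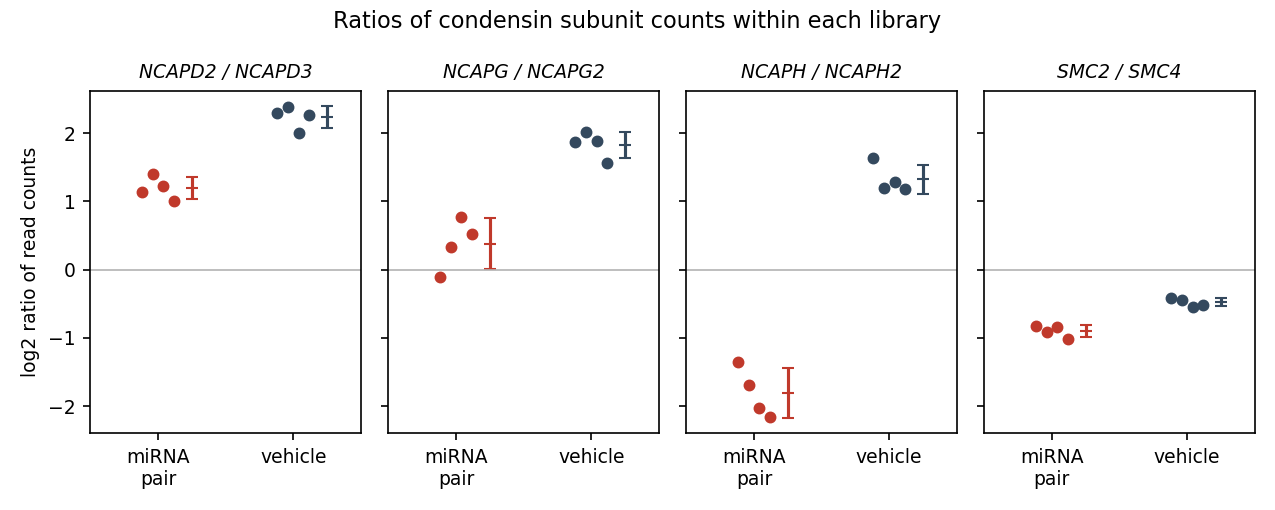
Log2 ratio of read counts within each library for 3 condensin I to condensin II counterparts and for SMC2 to SMC4, with 1 point per library and the mean with SD beside the points. All 4 ratios are lower with the miRNA pair, and the NCAPH to NCAPH2 ratio lies below 0 there (-1.81 ± 0.36) and above 0 with vehicle (1.32 ± 0.21).

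Levels of different subunits were compared as CPM per kilobase of the longest annotated transcript. In cells given the miRNA pair SMC4 had 67.3 ± 5.22 and SMC2 32.9 ± 3.48 CPM per kilobase, followed by NCAPH2 at 4.90 ± 1.09, NCAPD2 at 3.56 ± 0.376, NCAPG at 2.81 ± 0.884, NCAPG2 at 1.90 ± 0.487, NCAPD3 at 1.57 ± 0.329 and NCAPH at 1.02 ± 0.512 (SD, n = 4). From NCAPH2 downwards each gene overlapped the next one in at least 1 library, so no neighbours among those 6 are resolved, though NCAPH2 lay above NCAPH in every library. With vehicle the order was SMC4 at 226 ± 10.6, SMC2 at 148 ± 7.57, NCAPG at 48.0 ± 2.27, NCAPD2 at 28.5 ± 1.01, NCAPH at 18.4 ± 1.16, NCAPG2 at 12.0 ± 1.05, NCAPH2 at 10.5 ± 1.13 and NCAPD3 at 6.08 ± 0.790 CPM per kilobase. There only NCAPG2 and NCAPH2 overlapped, and every condensin I subunit stood above every condensin II subunit. NCAPH had the lowest mean level of the 8 with the miRNA pair and the fifth highest with vehicle.

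The SMC core exceeded the other subunits per kilobase in both groups. The mean level of SMC2 and SMC4 over the mean level of the condensin I subunits was 22.1, 20.8, 16.7 and 22.6 with the miRNA pair, against 5.85, 5.68, 5.63 and 6.48 with vehicle. Over the condensin II subunits it was 16.7, 17.0, 17.6 and 21.4 with the miRNA pair, against 21.5, 20.03, 18.1 and 19.22 with vehicle. The first of these ratios separated the groups and the second overlapped. Both are scores over the chosen genes and carry no test.

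**Figure D3:**
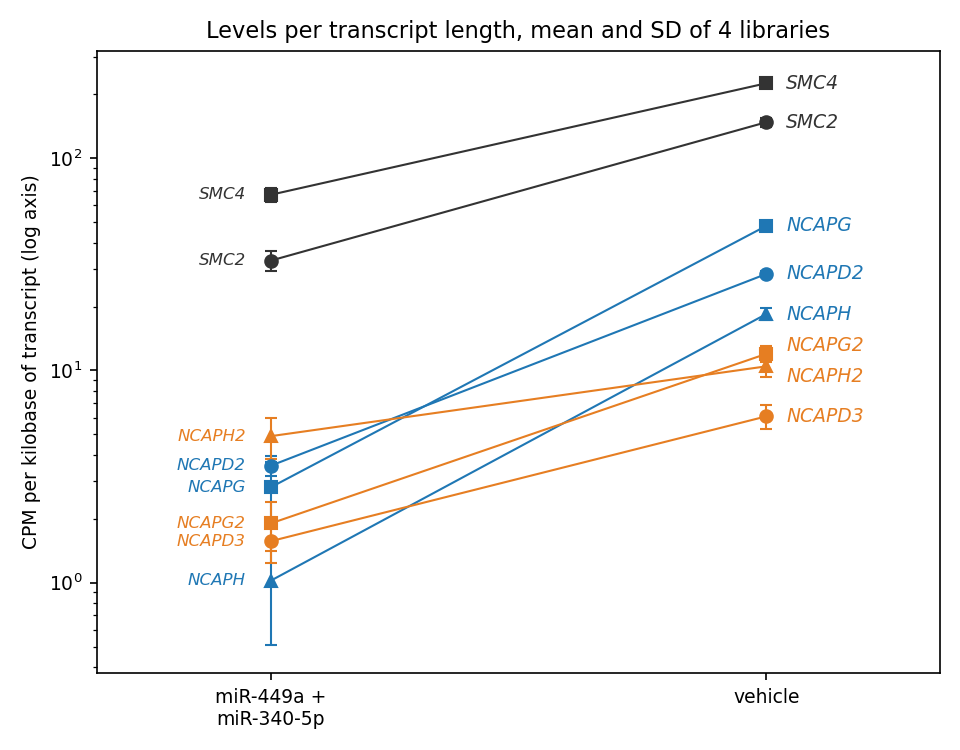
Mean CPM per kilobase of the longest annotated transcript (log axis) with SD over 4 libraries, for the miRNA pair on the left and vehicle on the right, with lines joining each gene. Condensin I (blue) runs from 18.4 to 48.0 with vehicle, above condensin II (orange) at 6.08 to 12.0, whereas with the miRNA pair both lie between 1.02 and 4.90, below SMC2 and SMC4 (dark grey).

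Genes that work with condensin were set beside its subunits in 5 lists. Of 20 partners and regulators 14 fell and 4 rose, against 34.0% of tested genes called lower and 33.4% called higher, and 2 did not pass. Their median log2 fold change was -3.11. The largest falls included the passenger kinase AURKB, which helps load condensin I (4.13 ± 0.525 CPM with the miRNA pair and 132 ± 3.57 CPM with vehicle, SD, n = 4 each), and its partner BIRC5, survivin (8.54 ± 2.11 and 243 ± 8.27 CPM). The chromokinesin KIF4A, which binds condensin I, fell 18.5-fold (5.67 ± 1.53 and 103 ± 6.84 CPM), and CDCA2, a chromosome-bound adaptor of protein phosphatase, 12.0-fold (14.2 ± 3.95 and 165 ± 12.4 CPM). TOP2A, the topoisomerase that untangles mitotic chromosomes, fell 21.0-fold, and MKI67, the coat protein that keeps them apart, 27.8-fold. The kinases CDK1 and PLK1, which phosphorylate condensin, fell 23.8-fold and 13.5-fold. The retinoblastoma gene RB1 fell 1.603-fold and TOP2B, the isoform that is not tied to division, 1.63-fold. MCPH1, microcephalin, which restrains condensin II, measured 39.8 ± 1.69 CPM with the miRNA pair and 44.1 ± 4.41 CPM with vehicle and did not pass (adjusted p = 0.21), and the phosphatase gene PPP2CA did not pass either (adjusted p = 0.713). AKAP8, an anchoring protein that binds NCAPD2, rose 0.48 on the log2 scale, the histone demethylase PHF8 0.46, the casein kinase gene CSNK2A1 0.33 and the phosphatase scaffold PPP2R1A 0.19. The PPP2R1A call was lost under 6 of 17 alternatives.

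Markers of division moved with the condensin genes. Of 22 mitosis genes 22 fell, against 34.0% of all tested genes, with a median of -3.49 and a range of -4.97 to -2.40, led in adjusted p by CENPE (26.5 ± 2.54 CPM with the miRNA pair and 398 ± 26.5 CPM with vehicle), TPX2, PRC1 and AURKA. Of 22 DNA replication genes 22 fell, against the same 34.0%, with a median of -2.35 and a range of -3.91 to -0.72, led by MCM2 (16.4 ± 3.11 and 143 ± 10.2 CPM), MCM3, MCM7 and FEN1. The medians of condensin I (-4.01) and condensin II (-1.998) lay on either side of that of the mitosis genes. The part of the cell cycle in the fall of the condensin genes was not tested.

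The lists of the other SMC complexes had medians nearer 0. Cohesin holds sister chromatids together and forms loops in interphase. Among its 14 ring and regulator genes, 9 were called lower and 2 higher (7 and 4 when libraries were scaled by size only), and the median was -0.39. Over all 12366 tested genes 34.0% were called lower and 33.4% higher, and by size only 3453 were lower and 4890 higher. The largest falls were in the S-phase acetyltransferase ESCO2 (21.7-fold), CDCA5, sororin (18.6-fold), and SGOL1, shugoshin (10.1-fold). The kleisin RAD21 fell 2.07-fold. In the SMC5/6 complex, which acts in DNA repair, 3 of 8 genes were called lower and 1 higher (3 and 2 by size only), and the median was -0.08. The share called lower was near the 34.0% of all tested genes. SLF1, SMC6 and NSMCE4A fell by 0.82, 0.50 and 0.50 on the log2 scale, and SLF2 rose by 0.27. Against these complexes 6 further ratios were tested, chosen after the values were seen. SMC2 to SMC3 was 0.448, 0.388, 0.398 and 0.358 with the miRNA pair, against 1.19, 1.22, 1.09 and 1.205 with vehicle, 2.96-fold lower. SMC4 to SMC1A was 2.97-fold lower, SMC2 to SMC6 3.15-fold, SMC4 to SMC5 3.22-fold and NCAPH to RAD21 9.12-fold. Each of these 5 was lower in 4 of 4 libraries of the miRNA pair than in any vehicle library (exact permutation p = 0.0286, adjusted over the 6 ratios 0.0343). Because the fold changes of the single genes were known when the pairs were chosen, these p-values are not independent support for a difference between the complexes. How often other gene pairs separate in this way was not computed. NCAPH2 to RAD21 gave no call: it was 0.0442, 0.0415, 0.0302 and 0.0262 with the miRNA pair, against 0.0300, 0.0367, 0.0392 and 0.0395 with vehicle. Its log2 difference was -0.06 (SE 0.20, exact permutation p = 0.8286), and differences between single libraries ran from -0.59 to 0.56. That range is between single libraries and sets no limit on a shift of the mean. The missing call does not show that the ratio was unchanged.

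**Figure D4:**
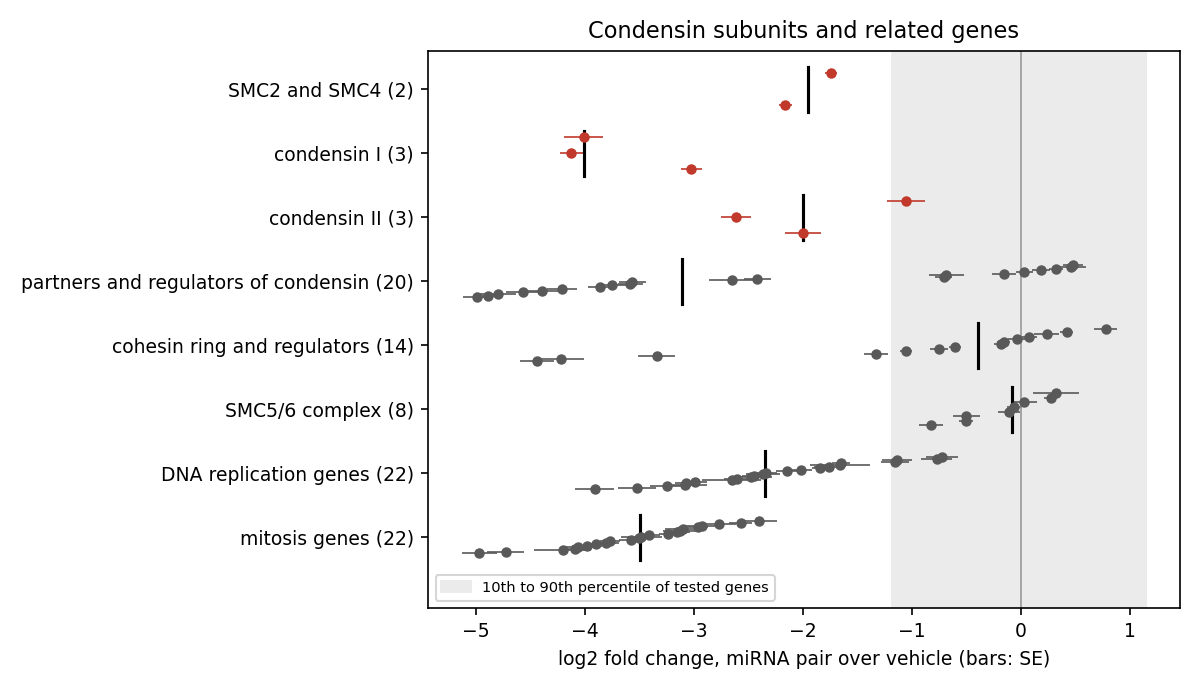
Log2 fold change, miRNA pair over vehicle, of each tested gene with its SE, by group (number of genes in parentheses), with a black bar at the median and a grey band from the 10th to the 90th percentile of tested genes (-1.18 to 1.15). The 3 condensin I genes lie from -4.12 to -3.02 among the mitosis genes, the condensin II genes from -2.61 to -1.05. The SMC5/6 genes lie from -0.82 to 0.33.

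The genes with the most similar profiles were found by the root mean square distance over the 8 libraries between log2 CPM values centred on each gene's mean, among 8953 genes averaging at least 10 CPM. Closest to the mean of condensin I were CENPF, a kinetochore gene (distance 0.106), HIST1H4C, a histone H4 gene of a multigene family whose reads may be shared (0.113), NUSAP1, a spindle gene (0.117), BUB1B, of the spindle checkpoint (0.120), and PRIM1, a primase subunit (0.121). Closest to the mean of condensin II were CDCA7L (0.0450), CTD-3035D6.1 (0.0712), BARD1, the partner of BRCA1 (0.0910), XRCC6, the Ku70 subunit of end joining (0.103), and MIEF1, of mitochondrial division (0.105). The condensin subunits themselves were farther from the mean of their own complex, at 0.283 to 0.417 for condensin I and 0.245 to 0.420 for condensin II. The 5 genes were picked as the closest of 8953 and the subunits were not. This contrast therefore does not measure how alike the subunits are. The 5 genes nearest to condensin I had log2 fold changes of -3.91 to -3.57, and the 5 nearest to condensin II of -1.95 to -1.74.

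Promoter windows are shown because the 8 genes moved together. RefSeq windows (GRCh38.p14) run from 250 bases before to 50 bases after an annotated start, and 10 windows matched 7 of the 8 genes, all but NCAPH2. They were searched on both strands for CCAAT, the box bound by NF-Y, and for the word TTTGAA and its variants TTCGAA and also TTTAAA, forms of the cell cycle homology region through which MuvB complexes act on genes of mitosis. TTTGAA was in 6 of the 10 windows, against 15.2% of all 35116 windows, TTTAAA in 1 of 10 against 12.2%, TTCGAA in 0 of 10 against 1.45%, and CCAAT in 3 of 10 against 34.6%. Each of the 7 genes had 1 window with one of the 3 homology region words, and NCAPD2, NCAPH and NCAPD3 also had CCAAT there. SMC2, SMC4 and NCAPD3 had 2 windows each, and so more than 1 place for a match. Per window, any of the 3 words was in 7 of 10, against 25.1% of all windows. Such a word together with the NF-Y box was in 3 of 10, against 9.70%. The windows of NCAPG and NCAPH, with the largest falls, of NCAPG2, with the largest fall in condensin II, and of the NCAPD3 start that holds the words are printed, with the words on either strand in capitals.
NCAPG, chr4:17810729-17811028, plus strand: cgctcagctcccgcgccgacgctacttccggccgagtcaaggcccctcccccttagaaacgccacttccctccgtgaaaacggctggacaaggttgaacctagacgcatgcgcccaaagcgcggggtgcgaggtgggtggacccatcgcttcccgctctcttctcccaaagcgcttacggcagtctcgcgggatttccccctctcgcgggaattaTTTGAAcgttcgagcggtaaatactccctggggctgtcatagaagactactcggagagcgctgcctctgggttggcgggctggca
NCAPH, chr2:96335516-96335815, plus strand: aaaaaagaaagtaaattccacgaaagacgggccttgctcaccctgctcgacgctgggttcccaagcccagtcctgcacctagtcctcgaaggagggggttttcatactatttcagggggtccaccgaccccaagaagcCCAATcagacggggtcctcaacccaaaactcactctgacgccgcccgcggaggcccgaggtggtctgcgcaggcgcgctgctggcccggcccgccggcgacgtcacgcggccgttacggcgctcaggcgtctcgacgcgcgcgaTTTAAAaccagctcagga
NCAPG2, chr7:158704755-158705054, minus strand: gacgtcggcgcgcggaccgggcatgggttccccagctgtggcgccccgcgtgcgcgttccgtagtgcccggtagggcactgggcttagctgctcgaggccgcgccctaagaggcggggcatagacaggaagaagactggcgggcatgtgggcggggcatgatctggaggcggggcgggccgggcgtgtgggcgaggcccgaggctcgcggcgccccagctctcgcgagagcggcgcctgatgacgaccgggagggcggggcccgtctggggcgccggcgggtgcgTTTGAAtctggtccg
NCAPD3, chr11:134223918-134224217, minus strand: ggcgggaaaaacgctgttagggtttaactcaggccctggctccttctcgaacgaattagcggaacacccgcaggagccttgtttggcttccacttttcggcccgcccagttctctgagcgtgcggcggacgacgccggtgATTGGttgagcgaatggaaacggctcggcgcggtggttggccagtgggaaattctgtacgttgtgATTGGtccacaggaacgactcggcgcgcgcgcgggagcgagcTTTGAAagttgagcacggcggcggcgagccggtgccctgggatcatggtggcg
TTTGAA begins 35 bases before the start in NCAPG, 3 before it in NCAPD3 and at position 35 from it in NCAPG2, and the word TTTAAA begins at position 32 in NCAPH. The words were thus found in windows of NCAPD2, NCAPG and NCAPH of condensin I and of NCAPD3 and NCAPG2 of condensin II. These matches are letters in a window and say nothing about what binds there.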

How the data were processed

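The 8 libraries were made from RD18 RNA with a kit that keeps strand, per the labels' protocols. The deposited values are raw read counts per gene symbol. GRCh38, HTSeq 0.5.3p3, TopHat2 2.0.13, DESeq2 and SAMtools 0.1.19.24 are listed, with no roles, per the submitters' processing notes. Annotation and strand setting: not given in the sources used here. Columns were matched to samples by library code and groups came from titles. Genes were kept by filterByExpr (minimum count 10, minimum total 15), scaled by TMM and tested over all 12366 kept genes with edgeR 4.0.16 in R 4.3.3 (quasi-likelihood test, robust, group only, two-sided, Benjamini-Hochberg adjustment, threshold 0.05). SE is |log2 fold change| divided by √F. Within-library ratios used exact permutation tests (scipy 1.17.1). The fit and the permutation test were tested on simulated data. Alternatives were DESeq2 1.42.0, limma-voom (limma 3.58.1), other scalings and filters, a replicate block and leaving out each library. Replicates of a group differed by a chi-square per gene of 2.21 to 5.89, above the 1 of pure sampling noise, and each was kept as a separate sample. Named genes were all members, up to 4 per list with the smallest adjusted p at a mean of at least 5 CPM, partners with a stated role (1 gene of that list is counted but not reported here by name), and the 5 nearest profiles per complex. The members and lists were chosen with earlier results of these data known. Gene models are GENCODE release 29.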

Additional observations from a re-analysis of the deposited data

Results flagged for a closer look

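Single libraries stood apart within a group of 4 in 8 of 128 groups checked, where chance gives about 1 in 20. The measure is the gap to the nearest library over the range of the group. Among condensin subunits, SMC2 had a gap of 0.849 with the miRNA pair, where replicate 1 was at 228 CPM and the other libraries at 183 to 189.7 CPM. NCAPG had a gap of 0.962 with vehicle, where replicate 4 was at 208 CPM and the others at 229 to 229.7 CPM. Both calls held without those libraries. Among the other named genes the gap was 0.862 for TOP2B, 0.884 for SLF2 and 0.845 for BARD1 with the miRNA pair, and 0.833 for CDCA2, 0.8293 for PRC1 and 0.831 for MIEF1 with vehicle.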

How the results depend on the processing

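All 8 condensin subunits were called lower under each of the 17 alternatives (other tests, scalings, filters, the replicate block and each library left out). The log2 fold change ranged from -4.28 to -3.98 for NCAPG, from -4.37 to -3.85 for NCAPH and from -1.19 to -0.92 for NCAPH2, whose largest adjusted p was 6.44e-06. Scaling by library size alone raised the median gene by 0.138 (log2) and gave 3453 lower and 4890 higher calls, beside 4199 and 4125 with TMM. There, 4 cohesin genes and 2 SMC5/6 genes were called higher, beside 2 and 1. PPP2R1A lost its call with DESeq2 (adjusted p = 0.0622), limma-voom (0.0598) and without vehicle replicate 1 (0.141) or 3 (0.184) or miRNA pair replicate 2 (0.064) or 4 (0.179). Same-numbered libraries correlated by 0.0135 to 0.0555 in their deviations from the group means. Of the 4 vehicle libraries 3 correlated best with their own number. Vehicle replicate 4 correlated slightly better with miRNA pair replicate 2 (0.015) than with replicate 4 (0.0135). All these correlations were weak, and the numbers were not used as pairs. With the replicate block 4171 genes were lower and 4102 higher, and all 8 condensin genes kept their call.

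With 1 library left out, the log2 difference ranged from -3.28 to -3.01 for NCAPH to NCAPH2, from -1.58 to -1.29 for NCAPG to NCAPG2, from -1.12 to -0.98 for NCAPD2 to NCAPD3 and from -0.45 to -0.38 for SMC2 to SMC4, but 3 against 4 libraries cannot give an exact p under 0.05. The uncalled NCAPH2 to RAD21 ratio ranged from -0.17 to 0.08. As summed counts, the change of condensin I against condensin II was -1.57 in place of -1.84. With coding length in place of transcript length the NCAPH to NCAPH2 level ratio with vehicle was 2.07 in place of 1.78. By coding length NCAPG2 (18.1 ± 1.59 CPM per kilobase) and NCAPH2 (11.9 ± 1.29) did not overlap with vehicle, whereas by transcript length they did. Depth limits NCAPH most, with 59 reads over all libraries of the miRNA pair, against 796 with vehicle.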
